A study of Mus musculus with 2 samples.

Results

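Zbtb, Zscan and Zkscan genes encode transcription factors that bind DNA through rows of C2H2 zinc fingers. Zbtb proteins carry a BTB domain, through which they pair and recruit repressor complexes. Zscan proteins carry a SCAN domain, another pairing domain found in vertebrates, and Zkscan proteins carry SCAN together with a KRAB repressor domain. Members were defined by symbol, as protein-coding genes of GENCODE mouse release 21 named Zbtb, Zscan or Zkscan followed by digits and at most 1 letter. Of this naming pattern, 1 gene was left out. This gave 66 of 21938 protein-coding genes, of which 39 were Zbtb, 16 Zscan and 11 Zkscan genes. The families, and the gene lists used below, were chosen with earlier results of these data known. SRCAP is the catalytic subunit of the remodeler that places the histone variant H2A.Z into nucleosomes, and the study asked where it lies on chromatin and how it and H2A.Z act on gene regulation. The question here was which of these factor genes had SRCAP at their promoters.

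SRCAP was mapped by CUT&Tag, in which an antibody directs the transposase Tn5 to cut and tag DNA beside the protein. Both samples were SYAT mouse embryonic stem cells, the only group, labelled as replicates 1 and 2. SYAT cells are CGR8 cells in which both Srcap alleles carry YPet and an auxin-inducible degron, and they came from 1 homozygous clone that also expresses the receptor OsTir1 from the EF1a promoter. They were grown in serum and LIF with auxinole, which blocks the auxin receptor and is the labelled control condition, and SRCAP was captured through YPet with an anti-GFP antibody. The study's reporting form states, for its experiments in general, that replicates were separate cultures, and the labels call these samples duplicates. The authors deposited 1 peak list per replicate, with 6158 and 12958 peaks in mm10 coordinates and a whole-number score for each peak, of at least 13. The lists hold no read numbers, so the depth of the libraries is unknown and scores were compared only within a list. Peak lists measure no expression, so the cell type could not be checked against its markers. No other condition was available for a comparison between groups.

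A gene was counted as having a promoter peak in a replicate if a peak touched any position between 1000 bp before and 500 bp after one of its annotated transcription start sites (TSSs). Of the members with a peak in both replicates, those ranked highest in each family by the worse of their score ranks in the lists, and Zbtb5 as the next in rank, are shown by up to 200 bases of the interval that both lists covered, read on the gene's strand from GRCm38, the assembly of mm10. Capitals mark short motifs that were searched on both strands. The first is the CCAAT box, which reads ATTGG on the other strand. The GC box was searched as GGGCGG and the ETS-type string as CCGGAAG, which reads CTTCCGG on the other strand. The TATA box was searched as TATAAA and the NRF1-type string as GCGCATGC. A palindrome was searched as CTCGCGAG and the YY1-type string as AAGATGGC. Only the GC boxes overlap one another in these sequences. The intervals are chr16:42875504-42875703 (plus strand) for Zbtb20, chr4:45012245-45012444 (minus) for Zbtb5, chr7:80860974-80861173 (plus) for Zscan2 and chr11:59506286-59506394 (minus, the whole shared interval of 109 bases) for Zkscan17. For contrast, the RefSeq promoter of Zkscan1 (GRCm38.p6, chr5:138084834-138085133, plus strand), a gene with no promoter peak in either list, is shown last.
Zbtb20: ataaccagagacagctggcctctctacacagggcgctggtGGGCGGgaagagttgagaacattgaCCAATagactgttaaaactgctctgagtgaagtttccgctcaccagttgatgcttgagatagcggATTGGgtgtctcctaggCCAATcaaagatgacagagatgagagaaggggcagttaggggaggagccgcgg
Zbtb5: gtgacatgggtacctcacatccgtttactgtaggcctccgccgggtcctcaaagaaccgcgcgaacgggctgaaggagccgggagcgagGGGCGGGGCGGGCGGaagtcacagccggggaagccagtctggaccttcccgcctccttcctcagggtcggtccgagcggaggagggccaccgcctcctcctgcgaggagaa
Zscan2: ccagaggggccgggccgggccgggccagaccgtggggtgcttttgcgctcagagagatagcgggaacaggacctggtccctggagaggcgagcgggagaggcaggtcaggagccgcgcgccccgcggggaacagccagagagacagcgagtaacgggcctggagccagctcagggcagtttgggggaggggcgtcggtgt
Zkscan17: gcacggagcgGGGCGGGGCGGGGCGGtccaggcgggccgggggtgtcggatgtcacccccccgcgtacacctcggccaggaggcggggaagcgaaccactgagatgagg
Zkscan1: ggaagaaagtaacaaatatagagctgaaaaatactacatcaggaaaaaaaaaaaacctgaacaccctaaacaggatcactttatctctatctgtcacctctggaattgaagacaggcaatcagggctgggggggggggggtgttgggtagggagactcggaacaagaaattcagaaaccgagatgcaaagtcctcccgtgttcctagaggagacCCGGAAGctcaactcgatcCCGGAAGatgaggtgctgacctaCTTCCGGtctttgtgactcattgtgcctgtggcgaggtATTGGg
The Zbtb20 interval held 2 copies of CCAAT, 1 of ATTGG and 1 GC box, with a GC content of 52.5% and 6 CpGs. Zbtb5 and Zkscan17 each held 3 overlapping GC boxes, with 68.0% GC and 19 CpGs in the first and 76.1% GC and 13 CpGs in the second. The Zscan2 interval, with 71.0% GC and 17 CpGs, contained none of these strings. The Zkscan1 promoter held 3 ETS-type strings, counting both strands, and 1 ATTGG in 300 bases with 8 CpGs. Matches to short strings describe the sequence and are not evidence of a bound factor.

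Of the 66 members, 12 (18.2%, 95% Wilson interval 10.7 to 29.1%) had a promoter peak in replicate 1, against 15.7% of all protein-coding genes. In replicate 2 it was 22 members (33.3%, 23.2 to 45.3%), against 30.4%. Both replicates had a promoter peak at 9 members (13.6%, 7.34 to 23.9%), against 12.0%, and 25 members (37.9%, 27.1 to 49.9%) had one in at least 1 replicate, against 34.0%. Each background share lay within the interval of the members, so the families as a whole were near the background. These intervals cover counting error over genes only. They are no test between conditions, and genes are not replicates.

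The 3 families were set side by side in each list. Among Zbtb genes, 7 of 39 (17.9%, 8.98 to 32.7%) had a promoter peak in replicate 1, 13 (33.3%, 20.6 to 49.0%) in replicate 2 and 5 (12.8%, 5.60 to 26.7%) in both. Of the 16 Zscan genes, 4 (25.0%, 10.2 to 49.5%) had one in replicate 1, 4 in replicate 2 and 3 (18.8%, 6.59 to 43.0%) in both. Of the 11 Zkscan genes, 1 (9.09%, 1.62 to 37.7%) had one in replicate 1, 5 (45.5%, 21.3 to 72.0%) in replicate 2 and 1 in both. The intervals of the 3 families overlapped in every list, and the difference between families was not tested. The related family of Zfp genes, chosen by the same kind of symbol rule and numbering 391, had shares of 24.6%, 45.5% and 19.4% (15.8 to 23.6%) in replicate 1, replicate 2 and both. These Zfp shares were above those of all 66 members, although the member intervals included the Zfp share in replicate 1 and in both replicates, and ended at 45.3% in replicate 2.

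**Figure D1:**
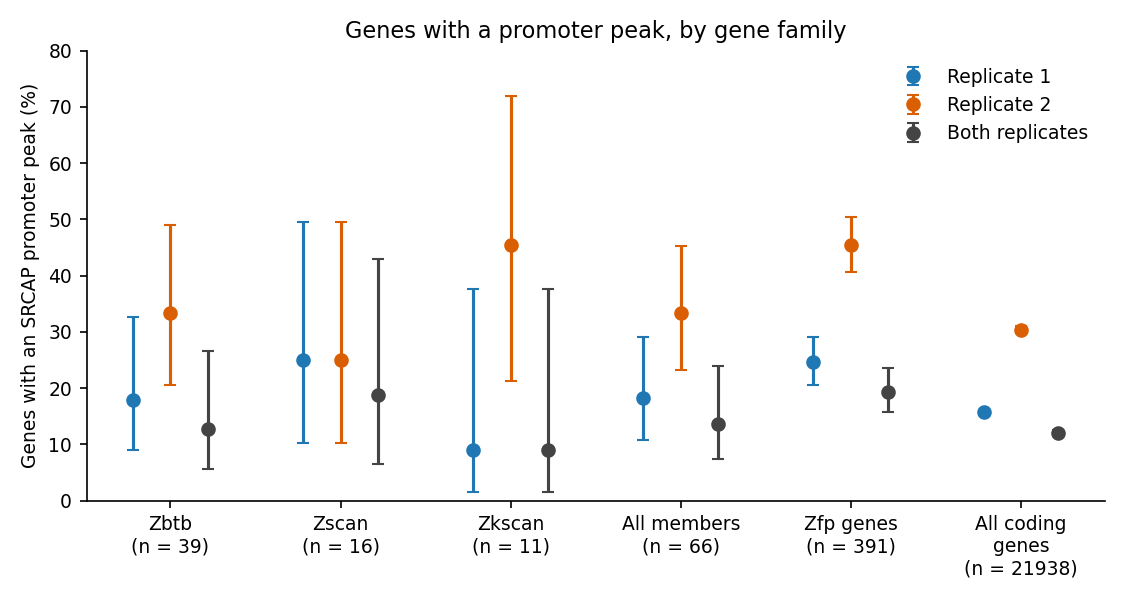
Share of genes (y axis, %) with an SRCAP peak in the promoter window, for each family, all 66 members, 391 Zfp genes and all 21938 protein-coding genes (x axis). Points are shares in replicate 1, in replicate 2 and in both, and bars are 95% Wilson intervals. All intervals of the 3 families overlap, and the Zkscan interval in replicate 2 runs from 21.3 to 72.0%.

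Agreement between the replicates was near that of all genes. Of the 12 members with a promoter peak in replicate 1, 9 (75.0%, 46.8 to 91.1%) also had one in replicate 2, against 76.7% of protein-coding genes. In the other direction it was 9 of 22 (40.9%, 23.3 to 61.3%), against 39.7%. The members with a peak in both replicates were Zbtb20, Zbtb5, Zbtb37, Zbtb26, Zbtb6, Zscan2, Zscan18, Zscan29 and Zkscan17. At all 9, a peak of replicate 1 overlapped one of replicate 2, by 46 bp at Zscan29 and by up to 762 bp at Zbtb5.

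The strongest peaks lay at Zbtb20 and Zbtb5. Zbtb20, which represses alpha-fetoprotein in the liver and acts in hippocampal development and in plasma cells, had a score of 156 in replicate 1 and 173 in replicate 2. These scores placed it among the top 1.04% and 1.03% of peaks in the lists. The peaks at chr16:42875382-42875826 and chr16:42875017-42875826 had their midpoints 277 and 459 bp upstream of 1 of the 19 TSSs of Zbtb20, which spans 767 kb. The nearest TSS of any gene was instead that of the lincRNA 4932412D23Rik on the opposite strand, 17 and 165 bp from the midpoints. The Zbtb20 TSS in question belongs to a noncoding transcript, and with protein-coding transcripts only Zbtb20 had no promoter peak in either list. Zbtb5 had scores of 142 and 136, in the top 1.32% and 2.43%. Its peaks, chr4:45011964-45012767 and chr4:45011930-45012725, contained the TSS, with midpoints in a UTR exon 28 and 66 bp downstream, and the window was shared with the antisense gene 1700055D18Rik.

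The other 7 members had lower scores, and all 7 had a score of at most 38 in replicate 1. Zbtb37 had scores of 38 and 47, with peaks at chr1:161034499-161035058 and chr1:161034332-161035034 that contained its TSS. These peaks also lay in the promoter of Gas5, a noncoding host gene of small nucleolar RNAs on the opposite strand. Zbtb26 had scores of 21 and 48, with peaks at chr2:37442811-37443377 and chr2:37442726-37443162 that contained its TSS and lay also in the promoter of Rabgap1, which encodes a GTPase-activating protein that switches off Rab GTPases.

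Zbtb6 counted in both replicates through the same peaks, because 1 of its 2 TSSs lies beside that of Zbtb26. At its other TSS it had a peak in replicate 2 only, chr2:37430939-37431439, with a score of 88 and a midpoint 270 bp upstream. So 9 genes with a peak in both replicates stood for 8 separate sites.

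Among the SCAN families, Zscan2 had scores of 21 and 71, with peaks at chr7:80860898-80861249 and chr7:80860888-80861272 whose midpoints were 121 and 127 bp downstream of the TSS in a UTR exon. It was the only one of the 9 whose peaks lay in no promoter of another gene. Zscan18 had a shared peak, with scores of 13 and 20, at an internal TSS (chr7:12780408-12780696 and chr7:12780050-12780729), and a further peak of score 51 at chr7:12803289-12803887 in replicate 2. Zscan29 had scores of 13 and 42, and its peaks, chr2:121170864-121171269 and chr2:121171224-121171479, lay in the promoter it shares with Tubgcp4, a component of gamma-tubulin complexes. Zkscan17 had scores of 16 and 26, at chr11:59506286-59506577 and chr11:59506056-59506394.

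**Figure D2:**
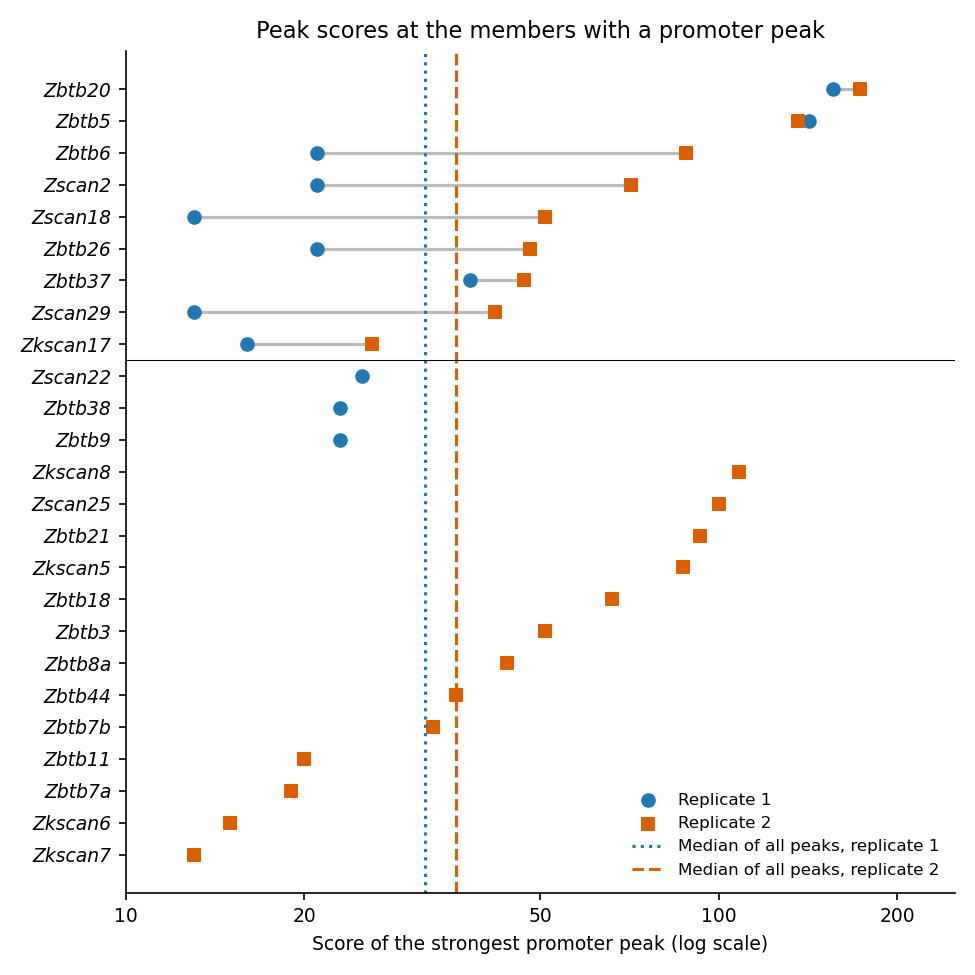
Score of the strongest promoter peak (x axis, log scale) of the 25 members with a promoter peak, in replicate 1 (circles) and replicate 2 (squares). Grey lines join the 2 scores of a member, which at Zbtb6 and Zscan18 belong to peaks at different TSSs. The replicate 2 peaks that overlap those of replicate 1 there score 48 and 20. Members above the line had a peak in both lists, and vertical lines give the median of each whole list, 32 and 36. Zbtb20 and Zbtb5 stand at 136 or more in both lists, while the other replicate 1 scores are at most 38.

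A further 16 members had a promoter peak in 1 list only. In replicate 1 these were Zscan22, with a score of 25, and Zbtb38 and Zbtb9, with 23 each. Zbtb38 encodes a protein that binds methylated DNA. The highest scores in replicate 2 alone were 108 at Zkscan8, 100 at Zscan25, 93 at Zbtb21, 87 at Zkscan5 and 66 at Zbtb18, a factor of cortical neuron development. Zbtb3 had 51, Zbtb8a 44, Zbtb44 36, Zbtb7b 33, Zbtb11 20, Zbtb7a 19, Zkscan6 15 and Zkscan7 13. Of these 13 members, 6 scored above 50 in replicate 2, a count that was not made over all protein-coding genes. Of protein-coding genes with a promoter peak in replicate 2, 39.7% also had one in replicate 1, against 40.9% of members. At Zbtb8a, Zkscan7 and Zbtb11 the peaks only reached into the window, with midpoints 1037 and 1205 bp upstream and 618 bp downstream of the TSS.

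Within replicate 1, the median score of the strongest promoter peak was 22.0 at the 12 members and 36.0 at all protein-coding genes with a promoter peak. A score of at least 50 was reached by 2 of 12 members (16.7%) and by 26.8% of those genes. In replicate 2 the medians were 49.5 at the 22 members and 44.0, with 11 of 22 (50.0%) and 43.0% at 50 or more. The members therefore lay below the background median in one list and above it in the other.

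The peaks were also placed relative to the start of the genes. In replicate 1, 9 of the 12 strongest member peaks (75.0%) contained a TSS of the gene, against 61.6% of all genes with a promoter peak, and the median distance from midpoint to TSS was 89.5 bp, against 135 bp. In replicate 2 it was 12 of 22 (54.5%), against 66.8%, and 201 bp, against 136 bp. Of the 11 distinct member peaks in replicate 1, 8 midpoints lay in a UTR exon, 2 in an intron and 1 outside the gene. Of the 23 in replicate 2, 9 lay in a UTR exon, 1 in an exon of a noncoding transcript, 8 in an intron and 5 outside the gene. None lay in a coding exon, but this placement was not counted for the promoter peaks of all protein-coding genes.

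**Figure D3:**
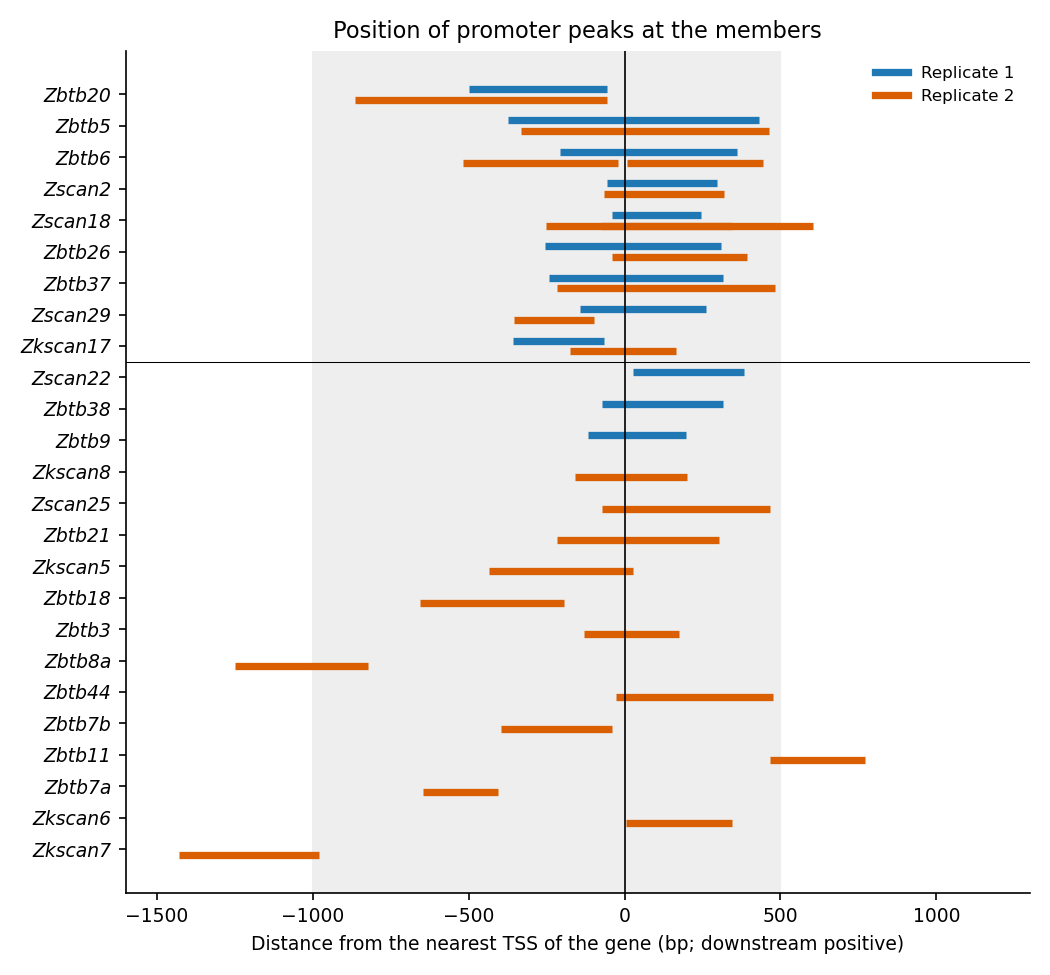
Extent of every promoter peak (bars) at the 25 members, in bp from the nearest TSS of the gene on the x axis, with downstream positive and the promoter window in grey. Members are ordered as by score, those with a peak in both lists are above the line, and bars are drawn for replicate 1 over replicate 2. Peaks at different TSSs of a gene, as in replicate 2 at Zbtb6 and Zscan18, are drawn on 1 line. The bars of Zbtb8a and Zkscan7 lie mostly upstream of the window, and the bars of Zbtb5, Zbtb37 and Zscan2 cross the TSS in both lists.

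After the peaks had been seen, TSSs of any gene on the opposite strand within 1000 bp of a member TSS were counted, coding and noncoding. Such a TSS was present at 18 of the 66 members (27.3%) and at 22.7% of protein-coding genes. It was present at 8 of the 9 members with a peak in both replicates (88.9%, 56.5 to 98.0%), all except Zscan2, against 39.1% of protein-coding genes with a peak in both. It was present at 4 of 16 members with a peak in 1 list (25.0%) and at 6 of 41 with none (14.6%). Of these 8 members, Zbtb26 and Zbtb6 share 1 peak. As the count was made because of the peaks at these genes, it is given without a test.

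With an opposite-strand TSS of a protein-coding gene only, the count was 3 of the 9 members with a peak in both replicates (33.3%), namely Zbtb26, Zbtb6 and Zscan29, and 8 of all 66 (12.1%), against 12.3% of protein-coding genes. Among protein-coding genes with a peak in both, this share was 25.1%, within the interval of the 9 members (12.1 to 64.6%). The strongest replicate 1 peak of 8 of the 9 members also lay in the promoter of another gene, against 37.4% of protein-coding genes with a peak in both. For the strongest replicate 2 peak it was 6 of 9 (66.7%, 35.4 to 87.9%), against 37.8%.

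Several members are known for roles in blood cells, in DNA methylation, at telomeres or in early embryos, and these were listed by role. Of 8 blood and lymphocyte factors, 3 had a promoter peak in replicate 2 and 1, Zbtb20, also in replicate 1. Over all protein-coding genes the shares were 30.4% and 15.7%, and 34.0% in at least 1 list, beside which these short lists are to be read. The others with a peak were Zbtb7a, a repressor of fetal globin genes, with a score of 19, and Zbtb7b, which directs T cells to the CD4 lineage, with 33. No peak was called at Zbtb1, Zbtb16, Zbtb17, Zbtb32 or Zbtb46. Of these, Zbtb16 encodes PLZF of innate-like T cells, Zbtb17 the Myc partner Miz-1 and Zbtb46 a marker of classical dendritic cells. Of 3 factors tied to methylated DNA, only Zbtb38 had a peak, in replicate 1, and Zbtb4 and Zbtb24 had none. No promoter peak was called at the telomere-linked Zbtb10 and Zbtb48. None was called at the 6 genes of the stem cell and 2-cell stage list, which were Zscan10, a factor of pluripotent cells, and Zscan4b to Zscan4f, which are expressed at the 2-cell stage.

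The Zscan4 genes are close copies of each other. Of the 31-base words in their promoter windows, 55.4 to 88.4% (median 85.1%, 5 genes) occurred more than once in the genome, against a median of 2.17% and a maximum of 41.5% at the other 61 members. The methods of the study keep unique alignments only, and the part of this in the missing Zscan4 peaks was not tested. Without these 5 genes, 4 of 11 Zscan genes (36.4%, 15.2 to 64.6%) had a promoter peak in each replicate and 3 (27.3%, 9.75 to 56.6%) in both. These intervals included the shares over all protein-coding genes, 15.7%, 30.4% and 12.0%.

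Genes of the same domain classes under other symbols were counted in the same way. Of 8 such BTB-zinc finger genes, 3 had a promoter peak in replicate 1, against 15.7% of protein-coding genes, and 3 in replicate 2, against 30.4%. The same 3 had one in both, against 12.0%. These were Gzf1 with scores of 35 and 108, Mynn with 26 and 132, and Hic2 with 39 and 127. None was called at Bcl6, Bcl6b, Hic1, Patz1 or Zfp131. Of 13 such SCAN-zinc finger genes, 4 had a promoter peak in replicate 1, against 15.7% of protein-coding genes, and 10 in replicate 2, against 30.4%. The 4 had one in both, against 12.0%. They were Zfp445 with scores of 45 and 60, Zfp174 with 43 and 71, Zfp110 with 41 and 42, and Zfp446 with 32 and 50. Most of these 13 genes carry Zfp symbols, and the Zfp shares were 24.6%, 45.5% and 19.4% in replicate 1, replicate 2 and both. The lists were chosen with earlier results of these data known. With so few genes in each list these counts are descriptions.

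No promoter peak was called in either list at 41 members, of which 24 were Zbtb, 11 Zscan and 6 Zkscan genes. Besides those named above, the Zbtb genes were Zbtb2, Zbtb12, Zbtb14, Zbtb22, Zbtb25, Zbtb34, Zbtb39, Zbtb40, Zbtb41, Zbtb42, Zbtb43, Zbtb45, Zbtb49, Zbtb7c and Zbtb8b. The Zscan genes were Zscan12, Zscan20, Zscan21, Zscan26 and Zscan5b, and the Zkscan genes were Zkscan1, Zkscan2, Zkscan3, Zkscan4, Zkscan14 and Zkscan16. The absence of a called peak does not show that SRCAP was absent. From these genes, the nearest peak midpoint was a median of 62.9 kb away in replicate 1 and 42.8 kb in replicate 2. It was within 10000 bp at 1 gene in replicate 1, Zbtb22 with 6796 bp, and at 8 genes in replicate 2.

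The closest were in replicate 2. At Zbtb2, a peak with a score of 52 had its midpoint 807 bp downstream of the TSS and began 587 bp from it, just outside the window. At Zscan10, a peak with a score of 46 was centred 1753 bp upstream, and the nearest TSS to it was that of Zfp13, at 384 bp. The peak nearest to Zkscan14, 2490 bp upstream, was the promoter peak of its neighbour Zkscan5, with a score of 87. Zbtb7c had a peak in both lists 24461 bp from its nearest TSS.

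The Zbtb promoters had the highest median CpG ratio and GC content of the families. The observed over expected CpG ratio of the 1501-bp promoter windows, taken as the median over the TSSs of a gene, had a median of 0.73 in Zbtb, 0.48 in Zkscan and 0.37 in Zscan genes, against 0.39 over all protein-coding genes. The 5 Zscan4 genes had a median of 0.09, and without them the other 11 Zscan genes had a median ratio of 0.49 and a median GC content of 49.8%, so the order of Zscan and Zkscan rested on these copies. The GC content had medians of 58.0%, 47.8% and 45.4% in Zbtb, Zkscan and Zscan genes. Over all protein-coding genes the CpG ratio had a median of 0.58 where both replicates had a promoter peak and 0.29 where neither had. Among the members these medians were 0.56 and 0.55, for 9 and 41 genes.

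Protein-coding genes were divided by this ratio into 3 classes of equal size, at 0.26 and 0.55. In the high class, 33 members had promoter peaks at 21.2% in replicate 1, 33.3% (19.8 to 50.4%) in replicate 2 and 18.2% in both. All protein-coding genes of this class had 25.4%, 48.5% (47.3 to 49.6%) and 20.2%. The 28 Zbtb genes in the high class had 17.9%, 25.0% (12.7 to 43.4%) and 14.3%. In replicate 2 the interval of the Zbtb genes ended below the share of the class, while the interval of all members in the class included it. In replicate 1 and in both, the intervals of the Zbtb genes included the share of the class. The other family counts in replicate 2 did not all lie on that side. In the high class 2 of 2 Zscan and 2 of 3 Zkscan genes had a peak, and in the middle class 5 of 10 Zbtb genes (50.0%, 23.7 to 76.3%), 1 of 8 Zscan and 2 of 6 Zkscan genes had one. In the middle class, 24 members had 16.7%, 33.3% and 8.33%, against 17.3%, 34.1% and 12.8%. In the low class, which held 9 members, 1 had a peak in replicate 1 (11.1%, 1.99 to 43.5%), 3 in replicate 2 (33.3%, 12.1 to 64.6%) and 1 in both (11.1%, 1.99 to 43.5%). All genes of the class had 4.39%, 8.45% and 3.10%, and only the replicate 2 interval lay above the share of the class. The 3 were Zbtb11, Zscan18 and Zkscan7. The peaks of Zbtb11 and Zkscan7 only reached into the window and scored 20 and 13, where 13 is the lowest score in the lists. As the ratio is a median over all TSSs of a gene, the class need not describe the promoter that holds the peak.

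**Figure D4:**
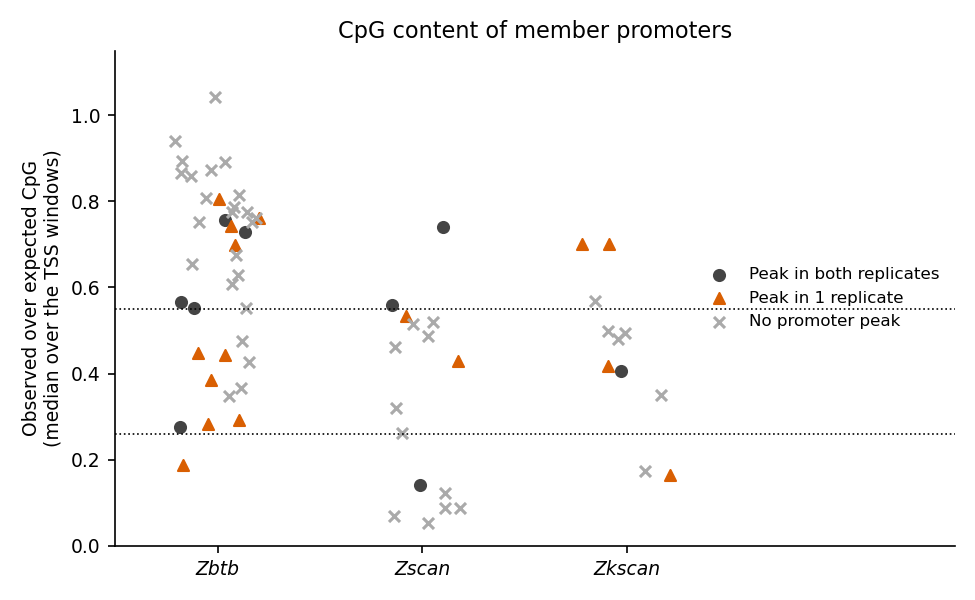
Observed over expected CpG ratio of the promoter windows (y axis, median over the TSSs of a gene) for each of the 66 members by family (x axis, spread sideways for visibility). Symbols give members with a promoter peak in both lists, in 1 list and in none, and dotted lines are the class limits of 0.26 and 0.55. The ranges of members with and without a peak overlap in each family, and the highest Zbtb ratios belong to genes with no peak.

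The number of annotated TSSs, which sets how much sequence can be overlapped, had a median of 3 both in members and in all protein-coding genes. Of 39 members with 1 to 3 TSSs, 10.3% had a peak in both replicates, against 7.11% of genes, and of 27 with 4 or more, 18.5%, against 17.8%. In RefSeq promoters, which run from 250 bases before to 50 after a start and were found for 54 of the 66 members (72 windows), CCGGAAG was present in 26.4%, against 11.9% of all windows of protein-coding genes. GGGCGG was present in 54.2%, against 47.8%, with 68.1% of 47 Zbtb, 42.9% of only 7 Zkscan and 22.2% of 18 Zscan windows. CCAAT was present in 33.3%, against 37.8%, TATAAA in 13.9%, against 12.1%, and GCGCATGC in 9.72%, against 3.65%. CTCGCGAG and AAGATGGC were each present in 1.39%, against 1.27% and 3.11%.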

How the data were processed

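CUT&Tag of SRCAP-YPet was analysed in 2 replicates of 1 group. The authors deposited a peak list per sample, with whole-number scores of the peak caller. The submitters' processing notes name STAR, Picard and MACS2 with mm10 and dm6, and the methods of the study describe unique alignment to mm10, removal of duplicates, scaling by Drosophila reads and MACS2, under a heading shared with ChIP-seq. The study's reporting form names versions of these tools and a MACS2 command with an input control in its ChIP-seq part, and whether that control was used for these lists is not known. Depth is unknown.

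A peak counted for a gene if at least 1 bp lay from 1000 bp before to 500 bp after a TSS of GENCODE mouse release 21. Sequence came from GRCm38, and promoters from RefSeq. Shares have 95% Wilson intervals. There is 1 group, so no test was run. All members with a peak were named. Members and lists were chosen with earlier results of these data known. The counting was tested on simulated data. Alternatives changed the window, the TSSs, the score minimum (50), list lengths, repeat sequence (peaks at least 50% soft-masked) and the genes and replicates included. One SCAN gene of the lists was not matched by symbol. Scripts ran in Python 3.11.15, with pandas 2.3.3 and numpy 2.4.6 for tables, scipy 1.17.1 for statistics and matplotlib 3.10.9 for figures.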

Additional observations from a re-analysis of the deposited data

How the results depend on the processing

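Of 75 recomputed values of 9 results, 53 moved by less than their interval or the spread between replicates, and 22 moved by more. Some of the 53 could not move. Leaving out the Zscan4 genes cannot change Zbtb or Zkscan shares, and equal list lengths leave replicate 1, the shorter list, as it is. With a score of at least 50, the share of members with a promoter peak was 3.03% in replicate 1, 16.7% in replicate 2 and 3.03% in both. Only Zbtb20 and Zbtb5 remained in both. Of 21938 protein-coding genes, 923 in replicate 1 and 2866 in replicate 2 had a promoter peak with such a score. The share in both was then 5.13% for Zbtb, 0% for Zscan, 0% for Zkscan and 2.99% for all protein-coding genes. When a peak had to contain a TSS, replicate 2 gave 18.2% of members. The share in both was then 7.58% for members, 7.69% for Zbtb, 12.5% for Zscan, 0% for Zkscan and 6.97% for protein-coding genes. With lists of equal length (6158 peaks), replicate 2 gave 22.7% of members. The share in both was then 12.1% for members, 0% for Zkscan and 9.69% for protein-coding genes. In these last settings, the replicate 2 share of protein-coding genes was not computed. With the most upstream TSS only, the share in both was 10.6% for members, 0% for Zkscan and 10.4% for protein-coding genes. With protein-coding transcripts only, the median signed distance from the TSS to the peak midpoint (downstream positive), as a mean of both lists, was 60 bp in place of 35 bp. Leaving out each replicate in turn gave 18.2 to 33.3% for members, 17.9 to 33.3% for Zbtb, 9.09 to 45.5% for Zkscan and 15.7 to 30.4% for protein-coding genes, with the higher value from replicate 2 alone. Chosen after seeing the data, the share without chromosome 8, which holds no member, was 11.5% for protein-coding genes, and without Zbtb6 it was 12.3% for members. By construction, the alternatives on score, list length and start sites keep fewer peaks or positions, leaving out a replicate removes the need for a peak in both lists, and the last alternatives drop genes. No other cause of the shifts was tested. No paired analysis was possible because both samples belong to a single group. Unknown depth limits what a missing peak shows, and intervals cover counting error only.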
